A study of Oncorhynchus mykiss with 32 samples.

Results

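Liver transcripts of a fat muscle line (F) of rainbow trout (Oncorhynchus mykiss) were set against those of a lean muscle line (L), with both lines fed a high-energy diet (HE). The samples were the 8 livers of the F-HE group and the 8 livers of the L-HE group, chosen by the condition in the sample labels, and they are 16 of the 32 livers of the series. The lines had been selected in opposite directions on muscle fat content, and each was 1 selected population, so that an effect of the selection and any other difference between these populations cannot be told apart. Both groups had received, for 6 months from first feeding, a diet with 23% lipid, while the F-LE and L-LE groups of the series had received 10% lipid (LE). The sample labels carry a number after the condition and name no tank. That number was taken here as the tank, since the study fed triplicate groups of fish. By this reading the F-HE livers came from 3 tanks that gave 3, 2 and 3 livers, and the L-HE livers from 3 tanks that gave 2, 3 and 3. RNA of a single liver was hybridized to each nylon membrane, which carried 9023 trout cDNA clones, and 7707 to 8073 clones were measured per F-HE array and 7796 to 8134 per L-HE array. Values are given as the log2 of the corrected signal over the median of the array, so that a difference of 1 between the groups is a 2-fold difference.

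The liver makes most plasma proteins, clears foreign compounds and nitrogen, and in trout is the main site where fatty acids are built from dietary carbon. It takes up the fatty acids of a lipid-rich diet, burns them in mitochondria or exports them in lipoproteins, and it tends to lower its own sterol and fatty acid synthesis when these lipids are supplied. In lines selected on muscle fat the liver was not the selected organ, and the question put to these arrays was whether its transcripts differed between the lines on the diet that supplies more lipid. In whole liver, fewer cells of a type and less RNA per cell cannot be told apart, and a cDNA spot does not separate near-identical gene copies, which are common in salmonids.

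F-HE arrays 59 and 65, called by the number in their titles, stood apart from the other arrays of both groups. The median Spearman correlation of an array with the other 15 HE arrays was 0.161 for array 59 and 0.843 for array 65, against 0.948 to 0.966 for the other 6 F-HE arrays and 0.942 to 0.963 for the 8 L-HE arrays. The 128 control spots, which the table does not describe, had a median of 0.71 on array 59 and 6.11 on array 65. On array 59, transcripts of the 10 clones of plasma proteins made by hepatocytes averaged 0.66, against 4.29 on array 65, 4.50 to 4.81 on the other 6 F-HE arrays and 4.31 to 5.00 on the L-HE arrays. The defining hepatocyte transcripts were therefore much nearer to the array median on array 59 than on the other 15. The comparison was therefore run with all 16 arrays and with the 14 that remain without arrays 59 and 65, and differences are those of 14 arrays where no other set is named. Array 65 held 1 of the 2 livers of F-HE tank 2, and array 59 held 1 of the 3 livers of F-HE tank 3. With 14 arrays F-HE tank 2 therefore rests on 1 liver.

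**Figure D1:**
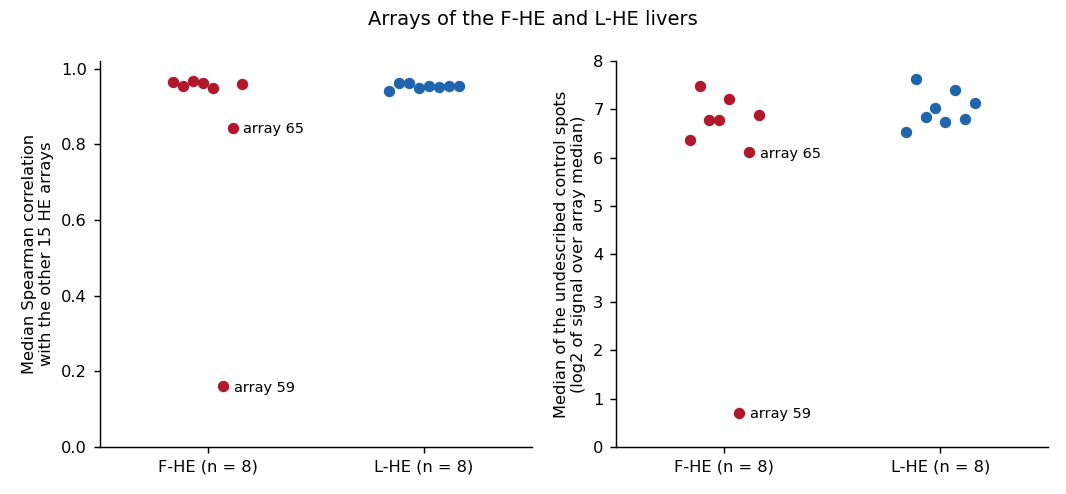
Median Spearman correlation of each array with the other 15 HE arrays (left panel) and median log2 value of the undescribed control spots (right panel), with 1 point per array for the 8 F-HE and 8 L-HE arrays. Array 59 lies at 0.161 and 0.71, and array 65 at 0.843 and 6.11, below the 14 other arrays in both panels.

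No clone differed between the lines on the HE diet by limma at a false discovery rate of 0.15. The study used that rate in another test, significance analysis of microarrays, on the lines with both diets pooled. It also required a two-way ANOVA p under 0.01, so the counts here are not a repeat of its calls. With 16 arrays, 0 of 7798 tested clones (0%) passed by limma, with a lowest adjusted p of 0.717, and 210 clones (2.69%) had an unadjusted p under 0.05, of which 93 (1.19%) were higher and 117 (1.5%) lower in F-HE. With 14 arrays, 0 of 7770 clones (0%) passed, with a lowest adjusted p of 0.995, and 346 clones (4.45%) had an unadjusted p under 0.05, 198 (2.55%) higher and 148 (1.9%) lower. An ordinary linear model with all groups was called at an unadjusted p under 0.01. It gave 51 of 7763 clones with arrays 59 and 65 (18 higher, 33 lower) and 16 of 7745 without them (7 higher, 9 lower). With no line difference a share of about 0.01 of the clones would lie under that threshold, and both counts are smaller shares. No clone passed in that model when adjusted over all clones (lowest adjusted p 0.614 with arrays 59 and 65). Means per tank in limma gave 0 at the adjusted threshold in both. The standard error of a clone's difference had a median of 0.241 with 16 arrays and 0.147 with 14. The middle 95% of the differences lay between -0.73 and 0.72 with 16 arrays and between -0.35 and 0.39 with 14. Only 59.1% of 7770 clones had the same sign in both fits, and 102 clones had an unadjusted p under 0.05 in both, which are 48.6% of those with 16 arrays and 29.5% of those with 14. Values below are therefore descriptions of single transcripts, none of which passed over all clones.

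Names were known for 284 clones, through the lists of clones that the study had called for diet or line on these same samples. Of them, 72 (25.4%) had an unadjusted p under 0.05 with 14 arrays and 35 (12.3%) with 16, and since the study chose them on these livers, these counts are not independent evidence of a line difference. The 133 clones listed for line alone had a median difference of 0.11 with 14 arrays and -0.00 with 16, the 133 listed for diet alone 0.04 and -0.12, and the 18 listed for both 0.32 and -0.00. For 53 named transcripts two-sided exact permutation tests, with the liver as the unit and tanks ignored, were run on 16 and on 14 arrays, and with 1 unnamed clone this made 108 tests. Those p-values are not adjusted. Each of the 53 had been picked for an unadjusted limma p under 0.05 in at least 1 of the fits on the same livers. A low exact p is therefore not separate support. Limma's p adjusted over all clones was 0.995 for each of the 53 with 14 arrays and at least 0.717 with 16.

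Among the named clones with an unadjusted p under 0.05 on 14 arrays and the same sign on 16, the 3 largest positive differences belonged to 2 secreted signals of the immune system and a folate enzyme. Leukocyte cell-derived chemotaxin 2 (LECT2), a protein that the liver secretes into plasma and that attracts neutrophils, had on the 6 retained F-HE arrays a lowest value of 3.84, a median of 4.95 and a highest value of 6.24, against 2.87, 3.96 and 4.94 in the 8 L-HE livers. In F-HE 3 livers lay above all L-HE livers and the groups otherwise overlapped. The difference was 1.05 with 14 arrays (standard error 0.367, exact permutation p = 0.0306), a 2.07-fold higher mean, and 0.80 with 16 (exact permutation p = 0.0937), where array 59 read 2.91. Interleukin-17D (IL17D), a cytokine, ranged from 1.90 to 2.79 around a median of 2.43 in F-HE, against -0.18 to 2.83 around 1.67 in L-HE. The F-HE range lay within the L-HE range, and the difference of 0.98 with 14 arrays (exact permutation p = 0.0599) was 0.39 with 16, with array 59 at -1.03.

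10-formyltetrahydrofolate dehydrogenase (FTHFD), which returns one-carbon units from folate to carbon dioxide, was spotted as a pair of clones. For the first (tcbk0009.o.05) the F-HE values ran from 0.57 to 2.07 with a median of 1.64, against -1.50 to 1.16 with a median of 0.71 in L-HE, and 4 of 6 F-HE livers lay above the highest L-HE liver. Its difference was 0.96 with 14 arrays (standard error 0.361, exact permutation p = 0.02) and 0.69 with 16 (exact permutation p = 0.101). The second clone (1RT110O02_C_H01) had a difference of 0.33 with 14 arrays (exact permutation p = 0.143) and 0.55 with 16 (exact permutation p = 0.0381). For this clone arrays 59 and 65 read 1.27 and 0.40, and array 59 was the highest of the 16 livers. The lowest was also an F-HE liver, on array 67 at -0.86. Both clones had a positive difference in both array sets, but that of the second with 16 arrays rests in part on array 59.

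Adipocyte plasma membrane-associated protein (APMAP), first described in fat cells, had a lowest F-HE value of 3.30, a median of 3.82 and a highest of 4.55, against 2.38, 2.94 and 4.19 in L-HE. The difference was 0.79 with 14 arrays (standard error 0.251, exact permutation p = 0.0206) and 0.28 with 16. ECM29, a proteasome-associated scaffold protein, ran from 1.65 to 2.44 with a median of 2.14 in F-HE, against 0.92 to 1.94 with a median of 1.70 in L-HE. Arrays 59 and 65 read 1.80 and 1.62, within the range of the other livers, and the difference was 0.58 with 14 arrays (exact permutation p = 0.0133) and 0.48 with 16 (exact permutation p = 0.0218). The efflux transporter ABCG2, which pumps foreign compounds and porphyrins out of cells, had a difference of 0.59 with 14 arrays (exact permutation p = 0.044) and 0.50 with 16 (exact permutation p = 0.0595). The other 4 of the 10 largest were the calcitonin gene-related peptide (CALCA, 0.80), the ribosome assembly factor GRWD1 (0.69), the DNA-binding helicase SMBP2 (0.63) and the dynein light chain DLC2B (0.50). With 16 arrays these 4 had differences of 0.03, 0.49, 0.31 and 0.39, and in each the groups overlapped. For ECM29, ABCG2, CALCA, GRWD1, SMBP2 and DLC2B the lowest L-HE livers were the same, those on arrays 17, 33 and 55. The differences and exact p-values of these transcripts therefore rest in part on the same few L-HE arrays and are not separate from each other.

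**Figure D2:**
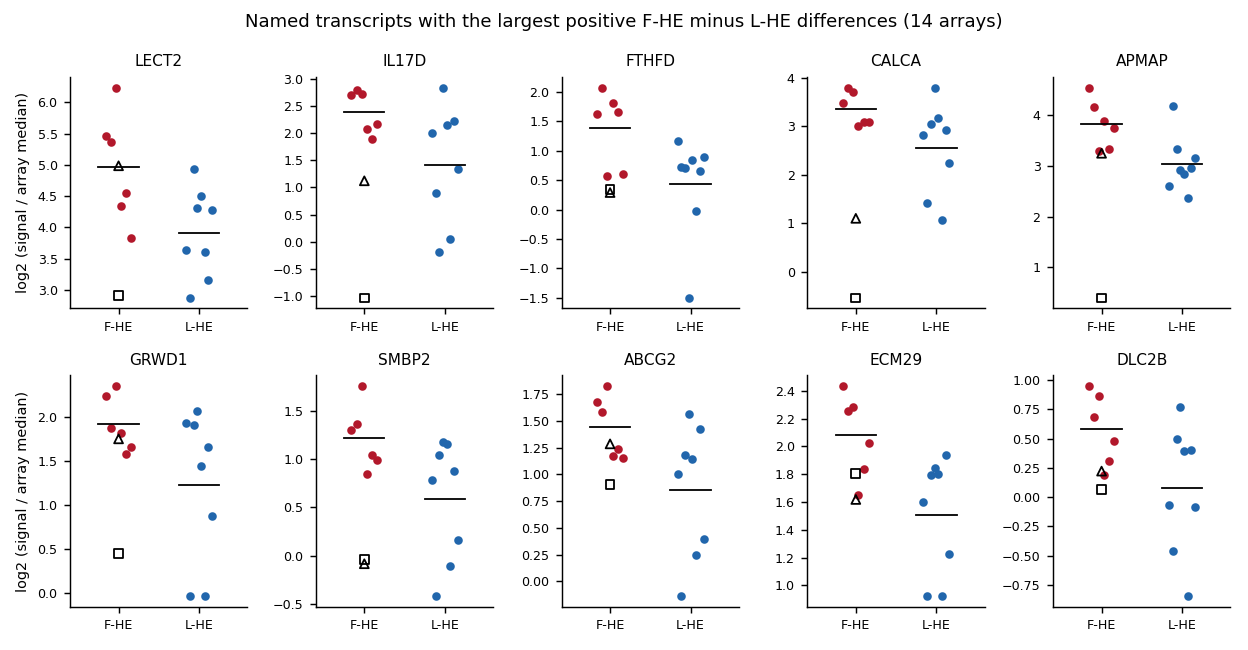
Log2 values of the 10 largest positive F-HE minus L-HE differences on 14 arrays among named transcripts within the limits that follow. The limits were an unadjusted p under 0.05 on 14 arrays and the same sign on 16. The sign limit leaves out PSB7 (0.80 and -0.00) and PERF (0.50 and -0.01). Each point is 1 liver, with F-HE at the left and L-HE at the right of each panel. Lines are means without arrays 59 (open square) and 65 (open triangle). In every panel the 2 groups overlap, and array 59 is the lowest F-HE liver in LECT2, IL17D, CALCA, APMAP, GRWD1, ABCG2 and DLC2B.

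The 10 most negative differences under the same limits included a sphingolipid kinase, a pair of sterol enzymes and uricase. Ceramide kinase (CERK1), which phosphorylates the sphingolipid ceramide, had F-HE values from -1.96 to -1.03 with a median of -1.64, against -1.79 to 0.18 with a median of -0.49 in L-HE. Its difference was -0.91 with 14 arrays (standard error 0.286, exact permutation p = 0.0186), a 1.88-fold lower mean, and -0.53 with 16 (exact permutation p = 0.176), where arrays 59 and 65 both read near 0 at -0.02 and -0.03. Uricase (URIC), the enzyme that oxidizes uric acid, had F-HE values from 0.76 to 1.21 with a median of 1.01, against 0.98 to 1.72 with a median of 1.55 in L-HE. In F-HE 3 livers lay below all L-HE livers, and the difference was -0.43 with 14 arrays (standard error 0.125, exact permutation p = 0.00533) and -0.37 with 16 (exact permutation p = 0.0235).

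Cytochrome P450 2J2 (CP2J2), a fatty acid epoxygenase in mammals, had F-HE values from 3.04 to 3.59 with a median of 3.11, against 2.45 to 4.29 with a median of 3.93 in L-HE, where 1 liver on array 17 lay below all others. The difference was -0.62 with 14 arrays (exact permutation p = 0.0366) and -1.09 with 16, where array 59 read -0.32. Inter-alpha-trypsin inhibitor heavy chain H3 (ITIH3), a plasma protein that binds hyaluronan, ran from 5.49 to 6.89 in F-HE, against 6.36 to 7.33 in L-HE, with a difference of -0.51 with 14 arrays (exact permutation p = 0.036) and -1.18 with 16. Fucolectin-6 (FUCL6), a fucose-binding lectin known from eel serum, had a difference of -0.59 with 14 arrays (exact permutation p = 0.0533) and -1.13 with 16. The remaining 3 besides the sterol enzymes were PIR (-0.46), the stress-activated kinase MAPK5 (-0.42, exact permutation p = 0.0699) and the proteasome subunit PSB6 (-0.39), with differences of -0.26, -0.61 and -0.97 with 16 arrays.

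**Figure D3:**
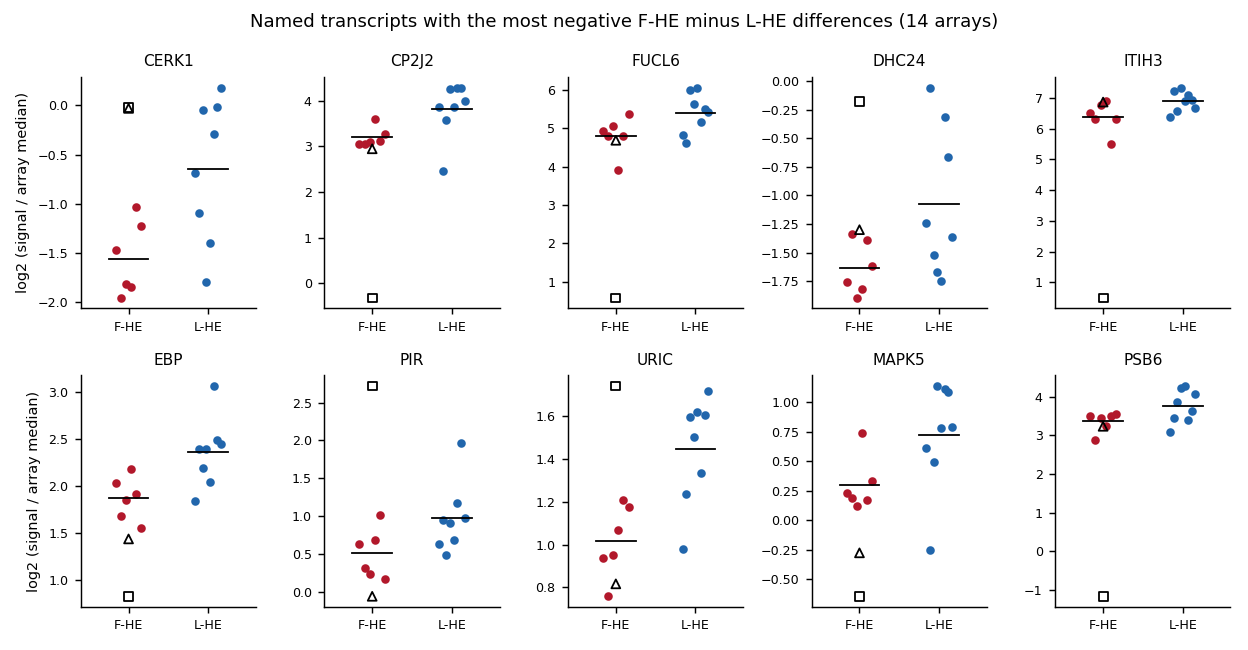
Log2 values of the 10 named transcripts with the most negative F-HE minus L-HE differences on 14 arrays among those with an unadjusted p under 0.05 there and the same sign on 16 arrays, which leaves out MCM5 (-0.50 and 0.27), with 1 point per liver, F-HE at the left and L-HE at the right of each panel. Lines are means without arrays 59 (open square) and 65 (open triangle). Array 59 lies at -0.32 for CP2J2, 0.58 for FUCL6, 0.49 for ITIH3 and -1.17 for PSB6, below all livers of both groups, and above all of them for PIR and URIC.

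On 14 arrays 1 clone of 7770 (0.0129%) had higher values in every F-HE liver than in any L-HE liver, and 3 clones (0.0386%) had lower ones. If livers were exchangeable between the lines, a clone would separate so, in either direction, with a probability of 0.000666. Some such clones are therefore expected among 7770, and their number is not evidence of a line difference. The 3 lower clones also did not overlap with all 16 arrays. That set adds array 59, which stood apart over all clones, so this is not separate support. Both named ones were among the lower. The amidase PGRP2, a peptidoglycan recognition protein that the liver secretes and that cleaves bacterial cell wall, read 2.32 to 2.58 with a median of 2.45 in F-HE, against 2.61 to 2.84 with a median of 2.73 in L-HE. The gap between the groups was narrow, and the difference was -0.29 with 14 arrays (standard error 0.0878, exact permutation p = 0.000666, the smallest that 6 against 8 livers can give) and -0.72 with 16, with array 59 at -0.48. Nucleoside diphosphate kinase A (NDKA), which passes phosphate between nucleotides, read 0.25 to 0.71 with a median of 0.66 in F-HE, against 0.75 to 1.23 with a median of 0.79 in L-HE, with a difference of -0.33 with 14 arrays (exact permutation p = 0.000666) and -0.55 with 16. The exact p of PGRP2 and NDKA follows from the lack of overlap by which they were picked here, and adds nothing to it. The unnamed clone with higher values in all F-HE livers (1RT91L23_B_F12) had a difference of 1.62 with 14 arrays, and all 4 had a limma adjusted p of 0.995.

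The named clones were grouped into 21 functional lists with 143 members, all of which were tested. Of these, 38 (26.6%) had an unadjusted p under 0.05 with 14 arrays and 22 (15.4%) with 16, against 4.45% and 2.69% of all tested clones and 25.4% and 12.3% of all named clones, and none passed over all clones. The difference had opposite signs in the 2 array sets for 54 members (37.8%), against 40.9% of all clones. The median difference over all tested clones was -0.01 with 14 arrays and 0.02 with 16, and over the 284 named clones, from which every list was drawn, it was 0.08 and -0.04. With 14 arrays 3726 of 7770 tested clones and 175 of 284 named clones had a difference above 0. With 16 arrays these were 4067 of 7798 and 121 of 284. Counts of higher or lower clones in the lists below are to be read beside these shares. The lists hold few clones each, all chosen by the study on these samples.

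Clones for sterol synthesis mostly had lower values in F-HE than in L-HE. Of 5 clones for cholesterol synthesis enzymes, 4 were lower in F-HE with 14 arrays (median -0.15) and all 5 with 16 (median -0.39), of which 2 and 1 had an unadjusted p under 0.05. The isomerase EBP, which moves a double bond in late sterol intermediates, had F-HE values of 1.55 to 2.18 with a median of 1.88, against 1.84 to 3.06 with a median of 2.39 in L-HE. Its difference was -0.49 with 14 arrays (standard error 0.162, exact permutation p = 0.00932) and -0.67 with 16 (standard error 0.2, exact permutation p = 0.00218), the clone having been listed by the study for both diet and line. The reductase DHC24, which completes cholesterol from desmosterol, had a difference of -0.56 with 14 arrays (exact permutation p = 0.0566) and -0.34 with 16, and array 59 at -0.18 was its highest F-HE value. The other 3, the sterol methyl oxidase ERG25, ERG28 and the acetyl-CoA acetyltransferase THIC, had differences from -0.15 to 0.00 with 14 arrays and from -0.44 to -0.19 with 16.

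Among 5 clones of fatty acid metabolism, the reductase FABG of fatty acid synthesis had a difference of -0.36 with 14 arrays (exact permutation p = 0.0353) and -0.56 with 16 (exact permutation p = 0.00824). The acetyl-CoA synthetase ACS2L had one of 0.20 (exact permutation p = 0.141) and 0.48 (exact permutation p = 0.0329). Arrays 59 and 65 read -0.75 and -1.26 for ACS2L, above all other HE livers. The fatty acid desaturase (FADS) had a difference of 0.43 with 14 arrays and -0.14 with 16, and the trifunctional enzyme of beta-oxidation (ECHA) one of -0.05 and -0.63. Of 9 clones for lipid binding and transport, 8 were higher in F-HE with 14 arrays (median 0.15) and 3 with 16 (median -0.33). The heart-type fatty acid binding protein (FABPH), which carries fatty acids in the cytosol, was spotted in 2 clones with differences of 0.17 and 0.15 with 14 arrays and of -0.28 and -0.41 with 16. The acyl-CoA binding protein (ACBP) had 2 clones with 0.01 and 0.26 on 14 arrays and -0.59 and 0.14 on 16. The only member with an unadjusted p under 0.05 was the lipid transporter ABCAC, at -0.33 with 14 arrays (exact permutation p = 0.02) and -1.02 with 16, with array 59 at -1.82. Beside CERK1, the other 3 clones of phospholipid and sphingolipid enzymes had differences from -0.24 to 0.03 with 14 arrays and from -0.44 to 0.03 with 16.

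Clones for central carbon enzymes and glucose handling were above the L-HE level in 5 of 6 with 14 arrays (median 0.25) and in 2 of 6 with 16 (median -0.08). 6-phosphogluconate dehydrogenase (6PGD), a source of NADPH in the pentose phosphate pathway, had F-HE values of 2.05 to 2.79 with a median of 2.33, against 1.58 to 2.60 with a median of 1.91 in L-HE. The difference was 0.39 with 14 arrays (exact permutation p = 0.036) and 0.14 with 16. Cytosolic malate dehydrogenase (MDHC) had one of 0.25 with 14 arrays (exact permutation p = 0.0346) and -0.02 with 16, with array 65 at 0.58 below all other livers. The glycogen-targeting phosphatase subunit PPR3D had one of 0.49 with 14 arrays (exact permutation p = 0.034) and 0.91 with 16, where array 59 read 4.96, against 0.28 to 1.58 in L-HE. Glyceraldehyde-3-phosphate dehydrogenase (G3P), of glycolysis, went the other way, with F-HE values of 4.52 to 5.46, against 5.09 to 5.69 in L-HE, and a difference of -0.35 with 14 arrays (exact permutation p = 0.0413) and -1.13 with 16. The glucose transporter GTR11 and pyruvate carboxylase (PYC) had differences of 0.25 and 0.00 with 14 arrays and of -0.14 and -0.78 with 16.

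Of 6 respiratory chain or ATP synthase clones, 4 were higher in F-HE with 14 arrays (median 0.18) and none had an unadjusted p under 0.05. The ATP synthase gamma subunit (ATPG) had 2 clones that differed from each other, at 0.61 and -0.20 with 14 arrays and at -0.00 and -0.53 with 16. Among 5 clones of the folate, methionine, cysteine and serine enzymes 4 were higher (median 0.25), among them betaine-homocysteine methyltransferase (BHMT), which remethylates homocysteine, at 0.25 with 14 arrays and -0.14 with 16. Of the aminotransferases and amino acid decarboxylase 4 of 5 were higher (median 0.23). Mitochondrial aspartate aminotransferase (AATM), which links amino acid breakdown to the citric acid cycle, had 2 clones at 0.37 (exact permutation p = 0.02) and 0.17 with 14 arrays and at 0.17 and -0.08 with 16. With 16 arrays the medians of these 3 lists were 0.04, -0.09 and 0.17.

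Protein breakdown showed no shared direction. Of 5 proteasome clones 2 were higher in F-HE and 3 lower in both array sets (medians -0.05 and -0.00). The subunit PSB7 was spotted as 2 clones that differed, one with F-HE values of 3.41 to 3.94, against 1.65 to 4.01 in L-HE, and a difference of 0.80 (exact permutation p = 0.0246), the other at -0.05. With 16 arrays the first was at -0.00, arrays 59 and 65 reading -0.62 and 1.52. In the ubiquitin system 5 of 8 clones were higher with 14 arrays (median 0.06) and 4 of 8 with 16 (median 0.01). The conjugating enzyme UB2E1 had a difference of 0.39 with 14 arrays (exact permutation p = 0.0147) and -0.00 with 16, and the inhibitor of apoptosis BIRC6 one of -0.34 (exact permutation p = 0.0306) and 0.03.

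The detoxification list had a positive median difference in both array sets. Of 10 clones, 7 were higher in F-HE in both array sets, with medians of 0.30 with 14 arrays and 0.41 with 16, and 4 and 5 of them had an unadjusted p under 0.05. The sets share 14 arrays, so the values with 16 are not separate support. Most members, among them UDA1, FMO6, CP2K4, ABCG2 and MTF1, were in the list because the study had called them for line on these livers. Their positive differences are therefore not independent evidence. Of all named clones 175 of 284 were higher with 14 arrays and 121 of 284 with 16. The list averaged 0.75 on array 59 and 0.64 on array 65. It averaged 0.46 to 0.58 on the other 6 F-HE arrays and 0.04 to 0.57 on the L-HE arrays. The UDP-glucuronosyltransferase UDA1, which conjugates lipophilic compounds, had F-HE values of -0.44 to 0.04 with a median of -0.05, against -1.07 to -0.32 with a median of -0.62 in L-HE. In F-HE 4 of 6 livers lay above the highest L-HE liver, and the difference was 0.48 with 14 arrays (standard error 0.128, exact permutation p = 0.00333) and 0.41 with 16 (exact permutation p = 0.0104). The putative flavin monooxygenase FMO6 had F-HE values of -1.20 to -0.81, against -1.94 to -0.95 in L-HE, and a difference of 0.39 with 14 arrays (exact permutation p = 0.00866) and 0.55 with 16 (exact permutation p = 0.00202). The cytochrome P450 2K4 (CP2K4), of a family described in fish, read 2.77 to 3.27 in F-HE, against 2.39 to 3.12 in L-HE, with 5 of 6 F-HE livers above the highest L-HE liver and a difference of 0.30 with 14 arrays (exact permutation p = 0.0273) and 0.41 with 16 (exact permutation p = 0.00761), where array 59 read 3.91. The metal-responsive transcription factor MTF1, which turns on metallothionein genes, had one of 0.34 with 14 arrays (exact permutation p = 0.0813) and 0.39 with 16 (exact permutation p = 0.0284). CP2J2, described above, lay below the L-HE level, the multidrug transporter MRP4 was at -0.04 in both array sets and glutathione synthetase (GSHB) at -0.12 and -0.02.

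The nucleotide list lay on the negative side, with 7 of 8 clones lower in F-HE in both array sets (medians -0.14 and -0.33). Beside URIC and NDKA, the equilibrative nucleoside transporter S29A1 had F-HE values of 3.18 to 3.73 with a median of 3.32, against 3.41 to 4.45 with a median of 3.76 in L-HE. Its difference was -0.36 with 14 arrays (exact permutation p = 0.0273) and -0.87 with 16 (exact permutation p = 0.00637). The other 5 had differences from -0.21 to 0.05 with 14 arrays and from -0.92 to 0.27 with 16. In iron handling the transferrin receptor (TFR1), which takes up iron-loaded transferrin, had a difference of -0.49 with 14 arrays (exact permutation p = 0.0859) and -0.75 with 16 (exact permutation p = 0.02). The other 3 iron clones lay between -0.09 and 0.23 with 14 arrays and between -0.07 and 0.02 with 16, the iron-responsive element binding protein IREB1 being at 0.23 and -0.07.

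Vesicle trafficking clones were higher in F-HE in 12 of 16 with 14 arrays (median 0.21) and in 8 of 16 with 16 (median -0.01). The calcium sensor DOC2B had F-HE values of -0.20 to 0.13, against -0.68 to 0.00 in L-HE, with 5 of 6 F-HE livers above the highest L-HE liver and a difference of 0.31 with 14 arrays (exact permutation p = 0.00266) and 0.03 with 16. The coatomer subunit COPG2 (0.24, exact permutation p = 0.02) and the ARF GTPase-activating protein ARFG3 (0.27, exact permutation p = 0.0519), both of the Golgi, were at -0.09 and 0.40 with 16 arrays. Arrays 59 and 65 read 0.77 and 0.985 for ARFG3, above all other HE livers. Caveolin-2 (CAV2) and the Rab effector RABE1 had differences of 0.32 (exact permutation p = 0.0666) and 0.66 (exact permutation p = 0.116) with 14 arrays. With 16 arrays CAV2 was at 0.38 (exact permutation p = 0.0381) and RABE1 at 1.07 (exact permutation p = 0.0333), and array 59 read 3.03 for RABE1, against -1.07 to 0.43 in L-HE. For CAV2 array 65 read 0.21, above all other HE livers. RNA processing (8 of 14 higher with 14 arrays, median 0.04, and 6 of 14 with 16, median -0.04) held 1 clone with an unadjusted p under 0.05 on 14 arrays, the RNA-binding protein SAM68 at 0.28 (exact permutation p = 0.044), whose second clone was at 0.23. With 16 arrays both turned negative, at -0.04 and -0.31. The helicase DDX31 was at -0.25 with 14 arrays (exact permutation p = 0.0286) and -0.42 with 16 (exact permutation p = 0.00668). In DNA replication and repair 6 of 8 were lower in F-HE with 14 arrays (median -0.09) and 4 of 8 with 16 (median 0.06), and the replication licensing factor MCM5 had F-HE values of -2.54 to -1.96, against -2.24 to -1.27 in L-HE, and a difference of -0.50 with 14 arrays (exact permutation p = 0.00466). With 16 arrays that of MCM5 was 0.27, with array 59 at 2.58 above all other livers.

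Immune transcripts were higher in F-HE in 10 of 12 clones with 14 arrays (median 0.28) and in 5 of 12 with 16 (median -0.02). Beside LECT2, IL17D, FUCL6 and PGRP2, perforin (PERF), the pore-forming protein of cytotoxic lymphocytes, had F-HE values of 3.28 to 3.60 with a median of 3.43, against 2.37 to 3.46 with a median of 2.92 in L-HE. Its difference was 0.50 with 14 arrays (standard error 0.151, exact permutation p = 0.004) and -0.01 with 16, where arrays 59 and 65 read 0.68 and 2.09. The endocytic receptor LY75 of dendritic cells had a difference of 0.43 with 14 arrays (exact permutation p = 0.04) and 0.59 with 16 (exact permutation p = 0.00932). These 2 and SH21B (0.32), an adaptor of lymphocytes, were the lymphocyte and dendritic cell markers, all 3 of 3 above the L-HE level with 14 arrays and 1 of 3 with 16. Their mean level was 1.40 to 1.90 in the 6 F-HE livers, against 1.00 to 1.49 in the L-HE livers, with 0.34 on array 59 and 1.22 on array 65, and its part in the immune list was not tested. Complement C3 (CO3), a plasma protein, was at 0.33 with 14 arrays and -0.15 with 16.

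Plasma proteins made by hepatocytes were lower in F-HE in 6 of 10 clones with 14 arrays (median -0.21) and in 10 of 10 with 16 (median -0.60). Plasminogen (PLMN), the precursor of the clot-dissolving protease, had F-HE values of 4.39 to 5.00, against 4.65 to 5.62 in L-HE, and a difference of -0.31 with 14 arrays (exact permutation p = 0.0533) and -1.17 with 16, with array 59 at -1.40. Alpha-2-macroglobulin (A2MG), a protease inhibitor, had one of -0.30 with 14 arrays (exact permutation p = 0.165) and -0.55 with 16 (exact permutation p = 0.0407), and transthyretin (TTHY), the thyroid hormone carrier, one of -0.32 and -0.93. The erythrocyte markers, 3 clones, had a mean level of 0.71 to 1.06 in the 6 F-HE livers, against 0.74 to 1.18 in L-HE, with 0.29 on array 59 and 0.67 on array 65, and a median difference of -0.09 with 14 arrays and -0.15 with 16. The 4 muscle markers had a mean level of 2.09 to 2.48, against 2.14 to 2.55 in L-HE, with 0.28 on array 59 and 2.02 on array 65, and a median difference of -0.13 with 14 arrays and -0.36 with 16. One of them, SMYD1, a methyltransferase of muscle fibres, had F-HE values of -0.13 to 0.18, against -0.53 to -0.11 in L-HE, and a difference of 0.28 with 14 arrays (exact permutation p = 0.002) and 0.21 with 16 (exact permutation p = 0.295).

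**Figure D4:**
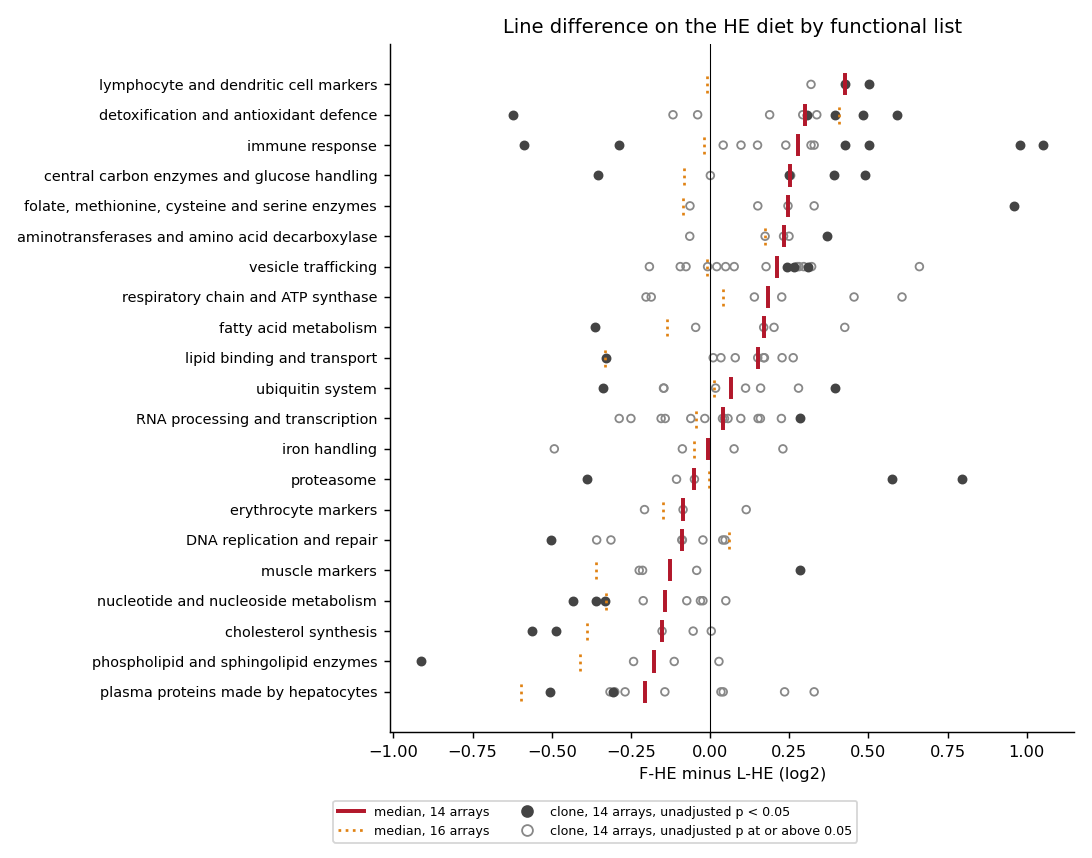
F-HE minus L-HE difference on the log2 scale of each member of the 21 lists with 14 arrays (filled circles, unadjusted p under 0.05; open circles, 0.05 or above), with the median of the list for 14 arrays (solid line) and for 16 arrays (dotted line). Detoxification has a positive median in both sets (0.30 and 0.41), which share 14 arrays, and most of its members had been listed by the study for line on these livers. The medians of the immune list (0.28 and -0.02) and of lipid binding and transport (0.15 and -0.33) lie on opposite sides of 0.

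Whether the line difference depended on the diet was asked through the F-LE and L-LE livers, which share no fish with the HE groups. The test of that interaction passed for 0 of 7763 clones (0%) with all 32 arrays, lowest adjusted p 0.548, and for 0 of 7745 (0%) without arrays 59 and 65, lowest adjusted p 0.176, while 523 (6.74%) and 266 (3.43%) had an unadjusted p under 0.05. With weights for each array 4 of 7763 clones passed, all unnamed. The line difference on the LE diet also passed for 0 of 7784 clones (0%), and 504 (6.47%) had an unadjusted p under 0.05. Of the 143 list members 7 (4.9%) had an unadjusted interaction p under 0.05 without arrays 59 and 65.

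The relation between the differences of the clones on the 2 diets turned with arrays 59 and 65. Across 7763 clones of the HE and LE comparisons Pearson's r was -0.30 and Spearman's rho -0.37 with all arrays, and across 7745 clones r was 0.21 and rho 0.23 without arrays 59 and 65. The share of clones with the same sign on both diets was 34.1% and 57.5%. Without array 59 alone r was -0.04. These are descriptions across clones, which share arrays and are not independent replicates. Leaving out in addition the F-LE array 62 and the L-LE arrays 53, 56 and 68, whose median correlation with the others was under 0.9, gave r = 0.16 over 7711 clones, a set of arrays chosen after the data had been seen.

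**Figure D5:**
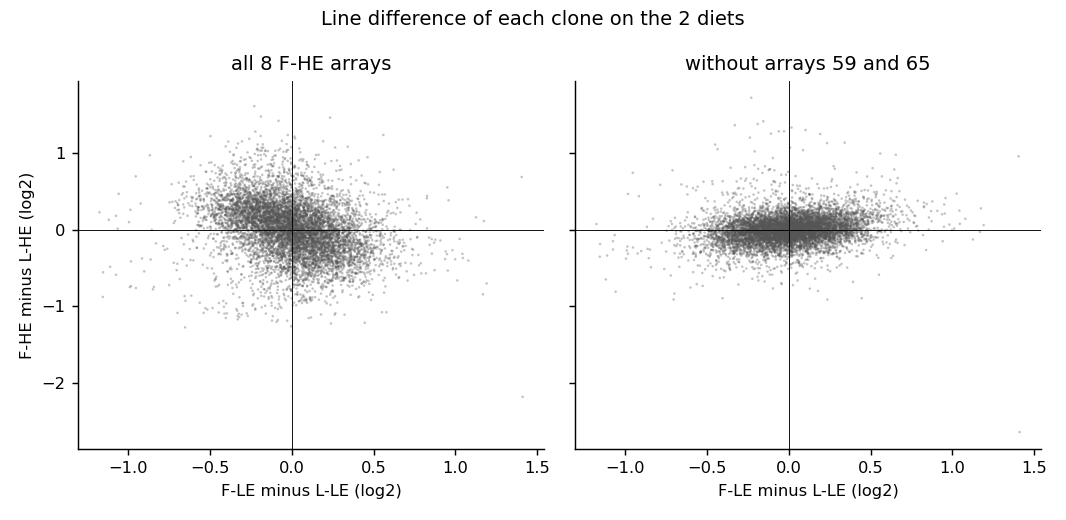
Line difference of each clone on the HE diet (F-HE minus L-HE, vertical axis) against that on the LE diet (F-LE minus L-LE, horizontal axis), log2 scale, 1 point per clone, with all 8 F-HE arrays (left, r = -0.30) and without arrays 59 and 65 (right, r = 0.21). The cloud slopes down at the left and up at the right, and the single point at the lower right of both panels is the unnamed clone tcba0009.c.23, at -2.19 and -2.65 on the HE diet and 1.41 on the LE diet.

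LECT2, uricase and PGRP2 were picked among the named list members by their interaction and by an unadjusted p under 0.05 on the HE diet. The HE difference is part of the interaction, so these limits are not separate. The share of list members with an unadjusted interaction p under 0.05 without arrays 59 and 65 was 4.9%, against 3.43% of all clones. The values below are therefore descriptions. Their LE side keeps F-LE array 62 and L-LE arrays 53, 56 and 68, whose median correlation with the others was under 0.9. Without those 4 arrays the LE difference was 1.77 for FTHFD and -0.56 for CERK1, so the sizes on LE depend on them. LECT2 had a difference of 1.05 on the HE diet with 14 arrays and -0.44 on the LE diet, and the interaction was 1.49 (standard error 0.483, limma adjusted p = 0.994). Its values ran from 3.84 to 6.24 in F-HE and 2.87 to 4.94 in L-HE. Uricase had -0.43 on HE and 0.07 on LE, with an interaction of -0.50 (adjusted p = 0.994). PGRP2 had -0.29 on HE and -0.75 on LE, the same direction with a larger size on LE, and an interaction of 0.46 (adjusted p = 0.994) without arrays 59 and 65 and of 0.03 with them. FTHFD (0.96 on HE, 1.40 on LE), PERF (0.50 and 0.63), UDA1 (0.48 and 0.40), ECM29 (0.58 and 0.50) and CERK1 (-0.91 and -0.70) had differences of the same sign on both diets. The study had listed each of them for line with both diets pooled on these livers, PERF also for diet. Their shared sign is therefore not separate support. LECT2 had been listed for diet alone. Not 1 of the transcripts named here passed over all clones on either diet.

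The largest line difference on the HE diet belonged to an unnamed clone, tcba0009.c.23, which was singled out after its values had been seen. It read -3.13 to 1.14 with a median of -1.21 on the 6 F-HE arrays, against 0.21 to 3.81 with a median of 1.69 in L-HE. In F-HE 4 of 6 livers lay below all L-HE livers and 5 of the 8 L-HE livers above all F-HE livers. The difference was -2.65 with 14 arrays (standard error 0.655, limma adjusted p = 0.995, exact permutation p = 0.00599) and -2.19 with 16 (exact permutation p = 0.0101), a 6.27-fold lower mean with 14. On the LE diet the same clone read -1.21 to 2.31 in F-LE, against -2.29 to -0.16 in L-LE, a difference of 1.41 in the other direction. Its interaction was -4.06 without arrays 59 and 65 (standard error 0.816, adjusted p = 0.176) and -3.60 with them (adjusted p = 0.548), the clone with the lowest interaction p in both. Within each group the values of this clone spread over 2 log2 units or more, with a standard deviation of 1.70 in F-HE and 1.18 in L-HE.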

How the data were processed

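The deposited table holds log10 values made by the authors, who quantified the membranes with AGScan, left out spots with little DNA, corrected each spot for its DNA through an oligonucleotide hybridization and scaled it to the array median in BASE. The methods say log-transformed without a base, and base 10 was taken from the values. A bare 0 marks a spot left out and was treated as missing (18357 cells of the HE arrays), while zeros written with decimals were kept. Values were converted to log2. Clones with at least 5 values in both groups were fitted with limma 3.58.1 in R 4.3.3 (lmFit, eBayes) without covariates and called at a Benjamini-Hochberg adjusted p under 0.15. The fit and the exact tests were tested on simulated data. The number of arrays limits the precision, and p-values measure the spread between livers, some of which shared a tank by the numbers in their labels. Of 9216 spots, 64 water spots had no value, and 128 undescribed control spots and 1 other were left out of the tests. The study's methods name 6 arrays per group without saying which, so all 8 deposited were used.

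Transcripts described are members of the functional lists and, among named clones, the 10 largest positive and 10 most negative differences on 14 arrays with an unadjusted p under 0.05 and the same sign on 16. List members have an exact p where the unadjusted p was under 0.05 in either fit. The transcripts, lists and tests were chosen with earlier results of these data known. Names are Swiss-Prot best hits from the study's additional files, whose test values were not used. Alternatives were another threshold, normalizations, filters, moderation, array weights, all groups in 1 fit, an ordinary linear model, tanks as blocks or means, and arrays left out. Clone sequences were not used here.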

Additional observations from a re-analysis of the deposited data

Results flagged for a closer look

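A liver was taken as far from its group where its gap to the nearest other liver exceeded Dixon's 95% critical value for the group's range, which chance does in about 1 in 20 groups. Among the 8 F-HE livers this held for 24 of 54 transcripts, with the extreme liver on array 59 in 22 and on array 65 in 2. Array 59 was the lowest for IL17D (-1.03), APMAP (0.39), GRWD1 (0.44), CP2J2 (-0.32), FUCL6 (0.58), ITIH3 (0.49), PSB6 (-1.17), PLMN (-1.40), S29A1 (0.0907), COPG2 (-0.23), ABCAC (-1.82), G3P (-1.33), 6PGD (0.69), PGRP2 (-0.48), DDX31 (0.32) and NDKA (-1.19). It was the highest for DHC24 (-0.18), PIR (2.72), URIC (1.74), CP2K4 (3.91), PPR3D (4.96) and MCM5 (2.58). Array 65 was the lowest for MDHC (0.58) and SMYD1 (-1.20). Array 59 was also the lowest F-HE array in its median correlation with the other HE arrays (0.161) and in its control spots (0.71).

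Among the 6 F-HE livers without arrays 59 and 65 it held for 4 of 54 transcripts, the highest liver for MAPK5 (0.74, array 14) and the lowest for CP2K4 (2.77, array 12), DOC2B (-0.20, array 39) and DDX31 (1.10, array 67). Among the 8 L-HE livers it held for 9 of 54. The lowest liver stood apart for FTHFD (tcbk0009.o.05, -1.50, array 23), CP2J2 (2.45, array 17), MAPK5 (-0.25, array 17) and FABG (0.0641, array 17), and the highest for PIR (1.97, array 34), S29A1 (4.45, array 23), ABCAC (5.52, array 23), RABE1 (0.43, array 13) and the unnamed tcba0009.c.23 (3.81, array 34).

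With array weights the line difference depended on the diet for 4 unnamed clones by limma. That on HE minus that on LE was -4.22 for tcba0009.c.23 (adjusted p = 0.122), 1.25 for tcbk0002.f.13 (adjusted p = 0.122), 1.34 for tcbk0027.d.02 (adjusted p = 0.14) and 1.21 for the remaining one (adjusted p = 0.122). Without array weights none of the 4 passed.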

How the results depend on the processing

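The count of 0 clones was the same for both array sets under a threshold of 0.05, all groups in 1 fit, quantile normalization, re-centring, both filters, robust moderation, array weights, tank as a random block, means per tank and each array left out in turn. With the tank number as a replicate block it was also 0. Deviations of same-numbered tanks correlated at 0.13, -0.10 and 0.18 with 16 arrays and at -0.17, 0.08 and 0.15 with 14. Those of differently numbered tanks correlated at -0.29 to 0.25 with 16 arrays and at -0.21 to 0.16 with 14. With 3 tanks per group these values cannot show whether the numbers pair the tanks. The ordinary linear model, called at an unadjusted p under 0.01, gave 51 of 7763 clones with 16 arrays and 16 of 7745 with 14. Array weights gave 4 for the interaction. Leaving out single arrays moved the clones with an unadjusted p under 0.05 between 143 and 355 with 16 arrays (highest without F-HE array 14) and between 253 and 521 with 14 (highest without F-HE array 39). All groups in 1 fit gave 431 and 167 such clones, array weights 482 and 531, and means per tank 396 with 16 arrays. For the interaction it was 266 without arrays 59 and 65 and 307 without the 6 arrays under 0.9. The relation between the diets was 0.21 without arrays 59 and 65, 0.16 without those 6, -0.13 after quantile normalization and -0.0378 without array 59, the sets without array 59 and without those 6 having been chosen after the data were seen. With arrays 59 and 65 the difference changed sign, against 14 arrays, for 54 of the 143 list members. Among the 54 transcripts with an exact test these were PERF (-0.0104), SAM68 (-0.0436), UB2E1 (-0.0026), MDHC (-0.0194), PSB7 (-0.0019), COPG2 (-0.0936), BIRC6 (0.028) and MCM5 (0.27). With array 65 alone added MDHC was at -0.0092, and with array 59 alone added COPG2 was at -0.0413 and MCM5 at 0.20. The remaining values of the transcripts with an exact test kept their direction under the alternatives run. Under the ordinary linear model URIC and tcba0009.c.23 had an unadjusted p under 0.01 with 14 arrays. No clone passed in that model when adjusted over all clones. With 14 arrays the median standard error of 0.147 sets the size of difference that could be seen.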
